A study of Arabidopsis thaliana and Arabidopsis lyrata subsp. lyrata with 12 samples.

Results

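The PIF and light-temperature signalling genes are 10 genes that connect light and temperature with plant growth, and their transcripts were followed through heat stress (HS) and recovery in *A. thaliana* and *A. lyrata*. They comprise the PHYTOCHROME INTERACTING FACTOR genes *PIF1*, *PIF3*, *PIF4*, *PIF5* and *PIF7*, the photoreceptor gene *PHYB*, the light-signalling regulators *HY5*, *HFR1* and *COP1*, and the auxin synthesis gene *YUC8*. The members were chosen by locus identifier. All 10 were found among 32678 genes of the *A. thaliana* table, and 10 of 32793 *A. lyrata* genes were linked to them as orthologues by the deposited annotation, 1 for each.

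PIFs are basic helix-loop-helix (bHLH) transcription factors that bind G-box and related motifs and promote elongation growth. Phytochrome B, the main red-light receptor of green plants, binds PIFs in its active form and leads to their inactivation, and warmth speeds the loss of this active form, so that it also senses temperature. The bZIP factor HY5 promotes light responses and can bind the same motifs as PIFs, HFR1 is an atypical bHLH protein that keeps PIFs from DNA, and COP1 is the ubiquitin ligase that marks HY5 and HFR1 for degradation.

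The Col-0 accession of *A. thaliana* and the MN47 line of *A. lyrata* were grown on soil for 3 weeks with 16 h of light at 21 °C and 8 h of dark at 16 °C, and rosette leaves were used. The groups of each species were control plants, plants kept for 6 h at 37 °C (HS), and plants given the same 6 h at 37 °C followed by 48 h at 21 °C (recovery). Each group had 2 libraries, 12 in all, and the hour of harvest is not given in the sources used here. Controls were collected directly after the stress, so that effects of recovery and of 48 h of further growth cannot be told apart, and HS and recovery were compared with the same control libraries. The labels do not say whether the replicates came from separate plants or cultures, and p-values therefore measure only the spread between these libraries.

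Libraries held 8246880 to 45254555 reads in genes. Summed CPM (reads of a gene scaled to the TMM-adjusted total of its library) of 4 heat-response genes were 8.68 to 58.9 in *A. thaliana* controls and at least 4.25e+04 after HS, and 36 to 40.4 and at least 1.63e+04 in *A. lyrata*. Leaf markers were abundant in every library but moved with HS. The sum of 4 was 2.72e+04 to 3.6e+04 CPM in *A. thaliana* controls, 5.42e+04 to 5.69e+04 after HS and 2.64e+04 to 2.78e+04 in recovery, and that of the 2 with an orthologue was 1.5e+04 to 1.55e+04, 7.07e+03 to 8.07e+03 and 1.51e+04 to 1.55e+04 CPM in *A. lyrata*. After HS, 3 of 4 were called higher and 1 lower in *A. thaliana* and 2 of 2 lower in *A. lyrata*. Over all genes tested, 34.9% were called higher and 39.5% lower in *A. thaliana*, and 37.9% and 38.7% in *A. lyrata*. Summed root markers reached at most 0.931 CPM. The sum of 6 meristem and flower markers was 2.08 to 6.51 CPM in *A. thaliana* controls, 21.6 to 22.4 CPM after HS and 7.22 to 9.02 CPM in recovery, with *CLV3* at 0 in each. In *A. lyrata* the sum was 2.46 to 2.94, 5.2 to 5.63 and 4.75 to 4.85 CPM, with *WUS* and *CLV3* at 0. Of these 6, 4 of 4 tested were called higher after HS in *A. thaliana* and 1 of 1 in *A. lyrata*. The part of these markers in the results was not tested. The *A. thaliana* controls stood apart from each other, with an SD of the log2 ratio between replicates of 0.411, against 0.148 after HS and 0.139 after recovery. In whole leaves, fewer cells of a type and less RNA per cell cannot be told apart.

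Upstream sequences of *PIF5*, *PHYB* and *HY5* are shown as examples that hold the letters of a motif PIF and HY5 proteins can bind. *YUC8* also holds such a match upstream and is not shown. The sequence of *PIF4* is shown because its HS response differed most between the species among the members tested in both. Each is the run of 250 bases before the RefSeq gene start in TAIR10.1, read 5′ to 3′ on the strand of the gene, with motif matches in capitals. The G-box (CACGTG) and the PBE-box (CACATG) were searched on both strands, as were pairs of heat shock element cores (GAANNTTC or TTCNNGAA). The motifs do not overlap in these sequences.
*PIF4*, chr2:17885851-17886100, plus strand, no match:
PIF4: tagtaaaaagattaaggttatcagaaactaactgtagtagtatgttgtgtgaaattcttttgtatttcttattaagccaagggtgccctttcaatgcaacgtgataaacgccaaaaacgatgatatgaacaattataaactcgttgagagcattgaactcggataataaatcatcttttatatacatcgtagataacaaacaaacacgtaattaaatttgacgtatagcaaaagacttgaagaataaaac
*PIF5*, chr3:21830838-21831087, minus strand, 1 G-box:
PIF5: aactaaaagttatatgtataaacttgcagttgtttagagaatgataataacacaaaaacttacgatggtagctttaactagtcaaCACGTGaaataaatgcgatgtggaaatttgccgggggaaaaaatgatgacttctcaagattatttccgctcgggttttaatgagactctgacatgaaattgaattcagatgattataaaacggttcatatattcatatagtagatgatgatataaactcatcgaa
*PHYB*, chr2:8139506-8139755, plus strand, 2 G-boxes:
PHYB: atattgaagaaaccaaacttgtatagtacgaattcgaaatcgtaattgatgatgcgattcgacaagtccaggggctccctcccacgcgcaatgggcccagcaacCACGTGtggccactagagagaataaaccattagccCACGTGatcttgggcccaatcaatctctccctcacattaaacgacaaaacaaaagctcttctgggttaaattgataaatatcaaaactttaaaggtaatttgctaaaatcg
*HY5*, chr5:3595074-3595323, minus strand, 1 PBE-box:
HY5: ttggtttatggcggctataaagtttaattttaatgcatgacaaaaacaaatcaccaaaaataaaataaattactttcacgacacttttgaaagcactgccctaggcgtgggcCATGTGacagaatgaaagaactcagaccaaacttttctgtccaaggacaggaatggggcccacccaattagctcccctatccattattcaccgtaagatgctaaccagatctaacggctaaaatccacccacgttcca

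Over 27443 *A. thaliana* promoters of 250 bases before and 50 bases after the gene start, 7.68% held a G-box, 12.9% a PBE-box and 19.3% a heat shock element core pair. Among the members, a G-box was found 165 bases before the start of *PIF5* and 146 and 111 bases before that of *PHYB*. A PBE-box was found 138 bases before *HY5*, 53 bases before *YUC8* and just past the start of *PIF7*, and the core pair 149 bases before *COP1*. A match is a description of the letters and not a binding site, and no match says only that these letters are not in this window.

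HS changed the PIF genes differently in the species. In *A. thaliana*, *PIF5* fell 4.12-fold and *PIF1* fell 1.97-fold, whereas *PIF4* was not called. In *A. lyrata*, *PIF4* fell 9.41-fold, *PIF7* fell 2.08-fold and *PIF5* and *PIF1* fell by less. *PIF3*, *PHYB* and *HY5* rose in both species. Changes are given as log2 fold changes of counts with their standard error (SE), from edgeR's quasi-likelihood test, and a gene was called at a Benjamini-Hochberg adjusted p under 0.05 over all genes tested. Of the 10 members, 8 passed the filter on low counts in *A. thaliana*, of which 3 were higher and 2 lower after HS. In the same comparison 74.4% of 18536 genes were called, 34.9% higher and 39.5% lower, so the share of members called did not exceed the background. In *A. lyrata*, 9 members passed the filter, of which 4 were higher and 5 lower, where 76.5% of 20779 genes were called, 37.9% higher and 38.7% lower. With 2 libraries against 2, an exact two-sided permutation test of a single gene cannot go below p = 0.333.

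**Figure D1:**
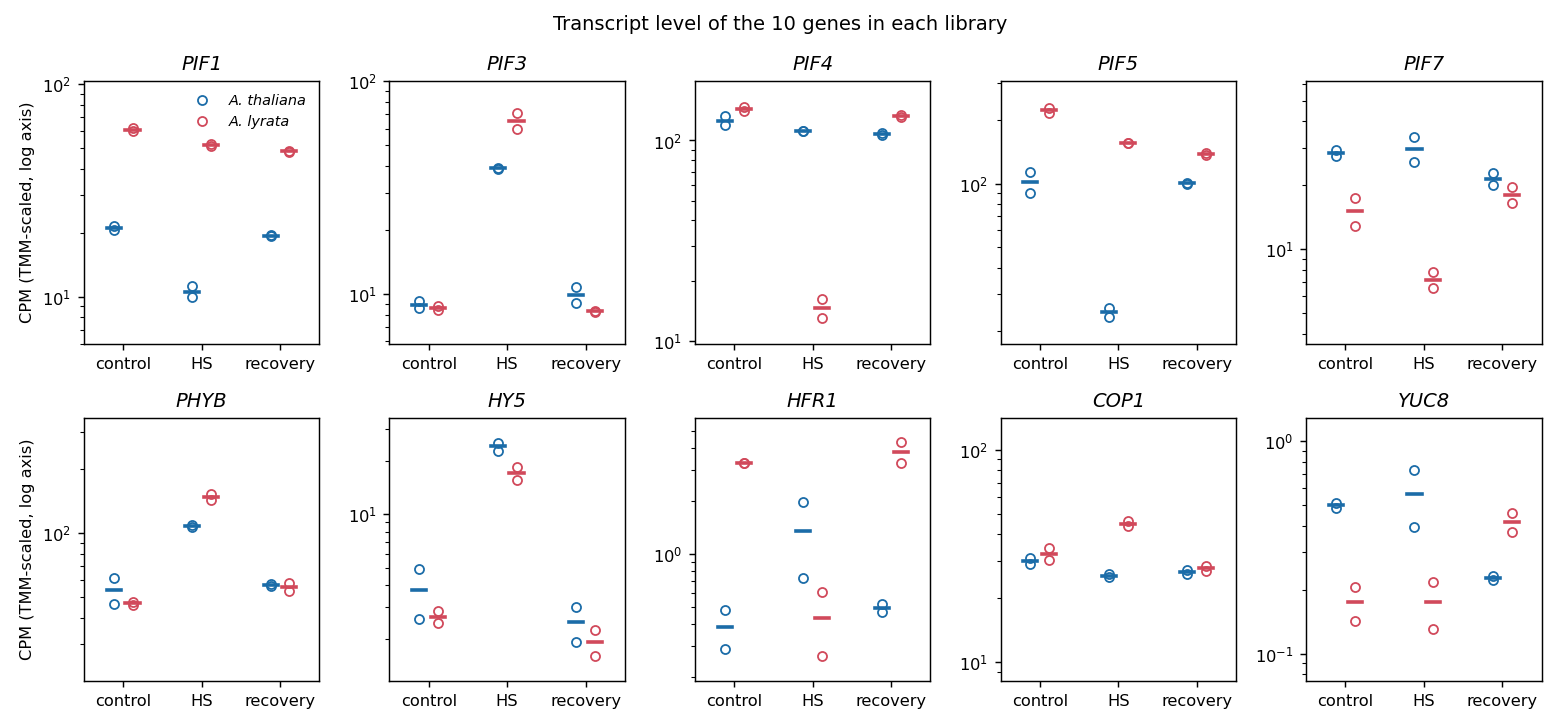
TMM-scaled CPM (log axis) of the 10 genes in control, HS and recovery libraries of *A. thaliana* (blue) and *A. lyrata* (red). Circles are single libraries and bars the mean of 2 libraries. *PIF4* of *A. lyrata* drops to 13.1 and 16.3 CPM after HS, whereas *A. thaliana* stays at 111 CPM in both libraries. Levels of the species come from separately scaled tables and were not compared.

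*PIF4* encodes the PIF best known for growth at warm temperature. In *A. thaliana* (AT2G43010, TAIR10 chromosome 2, 17886427 to 17889050) it was at 119 and 132 CPM in controls, at 111 CPM in both HS libraries and at 106 and 109 CPM in recovery. Both HS libraries lay below both controls, and the change of -0.18 (SE 0.11, 95% interval -0.43 to 0.07) was not called by edgeR (adjusted p = 0.16). In *A. lyrata* (AL4G39900) it was at 140 and 146 CPM in controls, 13.1 and 16.3 CPM after HS and 131 and 134 CPM in recovery. The HS libraries were far below all others, and the change was -3.23 (SE 0.10, edgeR adjusted p = 7.01e-15). The responses differed between the species by -3.03 (*A. lyrata* minus *A. thaliana*, SE 0.16, edgeR adjusted p = 2.13e-09 over 17743 one-to-one pairs). The *A. thaliana* change became a called decrease of -0.25 without control replicate 1, of -0.38 with a minimum of 10 reads per library and of -0.92 with scaling by library totals.

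*PIF5*, the closest relative of *PIF4*, showed the reverse order of the species. In *A. thaliana* (AT3G59060, chromosome 3, 21827978 to 21830507) it stood at 90.7 and 113 CPM in controls, 23.4 and 25.8 CPM after HS and 100 and 101 CPM in recovery. The HS libraries did not overlap with the others, and the transcript fell by 2.04 (SE 0.14, edgeR adjusted p = 7.31e-06). In *A. lyrata* (AL5G39730) the values were 227 and 216 CPM in controls, 156 CPM in both HS libraries and 137 and 139 CPM in recovery. All controls were above all other libraries, and the change after HS was -0.51 (SE 0.08, edgeR adjusted p = 1.2e-05). The responses differed by 1.56 between the species (SE 0.17, edgeR adjusted p = 1.89e-06), with the stronger decrease in *A. thaliana*.

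The ratio of *PIF4* to *PIF5* reads within a library does not depend on the scaling of libraries. In *A. thaliana* it was 1.31 and 1.17 in controls, 4.74 and 4.31 after HS and 1.06 and 1.07 in recovery. In *A. lyrata* it was 0.615 and 0.674 in controls, 0.0842 and 0.105 after HS and 0.955 and 0.960 in recovery. HS libraries thus lay above all others in *A. thaliana* and below all others in *A. lyrata*.

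*PIF3*, which acts mainly in seedling de-etiolation and is degraded in light, was the PIF gene that rose. In *A. thaliana* (AT1G09530, chromosome 1, 3076582 to 3079539) it was at 8.56 and 9.26 CPM in controls, 38.6 and 39.3 CPM after HS and 9.09 and 10.8 CPM in recovery. In *A. lyrata* (AL1G19860) it was at 8.81 and 8.45 CPM in controls, 59.5 and 71.0 CPM after HS and 8.21 and 8.36 CPM in recovery. The HS libraries were the highest in both species without overlap. The increase was 2.12 (SE 0.13, edgeR adjusted p = 5.05e-06) in *A. thaliana* and 2.94 (SE 0.12, edgeR adjusted p = 2.8e-13) in *A. lyrata*, and it was larger in *A. lyrata* by 0.84 (SE 0.18, edgeR adjusted p = 0.00121).

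*PIF1*, a repressor of seed germination in the dark, was at 20.7 and 21.6 CPM in *A. thaliana* controls (AT2G20180, chromosome 2, 8704024 to 8706900), 9.95 and 11.2 CPM after HS and 19.6 and 19.2 CPM in recovery. It fell after HS by 0.98 (SE 0.13, edgeR adjusted p = 0.000219). The libraries kept no strand information and the gene overlaps AT2G20170 on the other strand over 334 bp. That locus had at most 3 reads in any library. How reads in the overlap were counted is not given in the sources used here, so this count cannot show whether the overlap affected *PIF1*. In *A. lyrata* (AL3G46360) *PIF1* was at 62.1 and 59.9 CPM in controls, 51.1 and 52.3 CPM after HS and 48.5 and 47.9 CPM in recovery. The controls were above all other libraries, and the small decrease after HS of -0.24 (SE 0.08, edgeR adjusted p = 0.0128) was not called without control replicate 1 (adjusted p = 0.0759) or by DESeq2 (adjusted p = 0.0934). The responses differed by 0.77 (SE 0.15, edgeR adjusted p = 0.000373).

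*PIF7*, which acts in shade avoidance and in the growth response to daytime warmth, was at 27.3 and 29.3 CPM in *A. thaliana* controls (AT5G61270, chromosome 5, 24638773 to 24640600), 25.7 and 33.7 CPM after HS and 20.1 and 22.7 CPM in recovery. Control and HS libraries overlapped, and the fitted value was 0.09 (SE 0.15, 95% interval -0.26 to 0.44, edgeR adjusted p = 0.61). Its sign turned without HS replicate 2 (-0.13), and scaling by library totals gave a called value of -0.66. In *A. lyrata* (AL8G36680) *PIF7* was at 12.9 and 17.5 CPM in controls, 6.55 and 7.84 CPM after HS and 16.4 and 19.6 CPM in recovery. The HS libraries were below all others, with a change of -1.06 (SE 0.16, edgeR adjusted p = 1.43e-05), and the responses differed by -1.13 (SE 0.25, edgeR adjusted p = 0.00144).

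**Figure D2:**
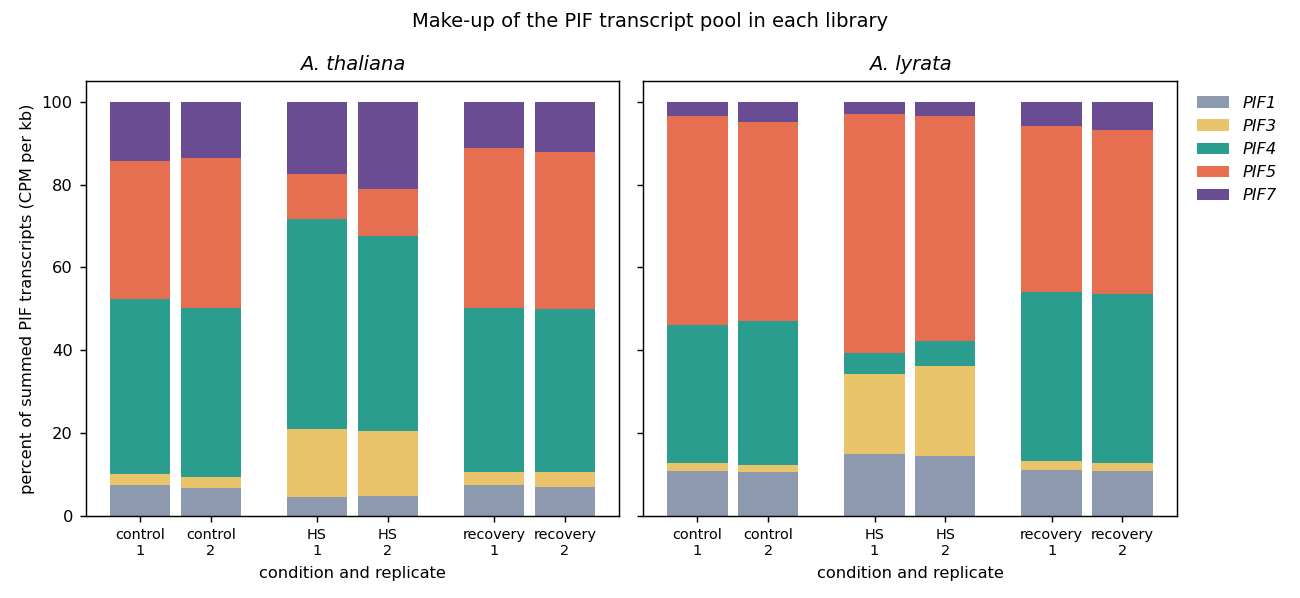
Share of each PIF gene in the summed CPM per kb of exon of the 5 PIF genes, in percent, for each library (x axis: condition and replicate) of *A. thaliana* (left) and *A. lyrata* (right). After HS *PIF4* makes up 50.6 and 47.1% in *A. thaliana* and 5.21 and 6.11% in *A. lyrata*, and *PIF3* widens in both species.

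As a pool, the 5 PIF transcripts kept different leading members after HS, as the stacked shares per library show. Per kb of exon, *PIF4* made up 42.2 and 40.9% of the summed PIF level in *A. thaliana* controls and 50.6 and 47.1% after HS, while *PIF5* went from 33.3 and 36.2% to 11.0 and 11.3%. In *A. lyrata*, *PIF4* made up 33.4 and 34.9% in controls and 5.21 and 6.11% after HS, while *PIF5* was at 50.5 and 48.1% and then at 57.6 and 54.4%. *PIF3* was at 2.85 and 2.69% in *A. thaliana* controls and at 16.5 and 15.7% after HS, and at 1.71 and 1.65% and then 19.3 and 21.7% in *A. lyrata*. The sum over the 5 genes was 126 and 145 CPM per kb in *A. thaliana* controls and 98.3 and 106 after HS, and 247 and 246 and then 148 and 157 in *A. lyrata*. The HS libraries had the lowest sums in both species. These shares and sums are descriptions and were not tested.

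*PHYB*, the photoreceptor gene, rose after HS. In *A. thaliana* (AT2G18790, chromosome 2, 8139881 to 8144430) it was at 46.3 and 61.9 CPM in controls, 107 and 109 CPM after HS and 57.9 and 56.7 CPM in recovery. In *A. lyrata* (AL3G51370) it was at 46.1 and 47.6 CPM in controls, 143 and 153 CPM after HS and 53.4 and 58.4 CPM in recovery. HS libraries were the highest in both species, the *A. thaliana* controls were spread on both sides of recovery, and the increase was 0.99 (SE 0.14, edgeR adjusted p = 0.000424) in *A. thaliana* and 1.66 (SE 0.08, edgeR adjusted p = 3.46e-12) in *A. lyrata*. The increases differed by 0.71 (SE 0.18, edgeR adjusted p = 0.00309), and by 0.47 without *A. thaliana* control replicate 2. With scaling by library totals, *PHYB* of *A. thaliana* was at 0.25 and no longer called (edgeR adjusted p = 0.0888). That scaling moved the median of all *A. thaliana* genes from -0.12 to -0.87.

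*HY5*, the bZIP factor that opposes PIFs, had low levels and a large increase in both species. In *A. thaliana* (AT5G11260, chromosome 5, 3593380 to 3594992) it was at 4.94 and 2.59 CPM in controls, 22.8 and 25.3 CPM after HS and 3.03 and 1.92 CPM in recovery. In *A. lyrata* (AL6G21540) it was at 2.46 and 2.86 CPM in controls, 18.5 and 15.5 CPM after HS and 2.24 and 1.60 CPM in recovery. HS libraries were several-fold above all others in both species. The increase was 2.73 (SE 0.30, edgeR adjusted p = 9.3e-05) in *A. thaliana* and 2.62 (SE 0.19, edgeR adjusted p = 8.14e-10) in *A. lyrata*. *HY5* was the 1 member of 9 whose HS responses were not called different between the species (-0.08, 95% interval -0.92 to 0.75, edgeR adjusted p = 0.878), and this interval still allows a difference of almost 1 on the log2 scale.

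*HFR1*, the inhibitor of PIF binding, had few reads. In *A. lyrata* (AL1G11610) it had 32 and 46 reads in controls (3.28 and 3.29 CPM), 2 and 14 reads after HS (0.262 and 0.606 CPM) and 46 and 72 reads in recovery (4.29 and 3.29 CPM). The HS libraries were the lowest, and the transcript fell by 2.65 (SE 0.35, edgeR adjusted p = 2.53e-06). In *A. thaliana* (AT1G02340, chromosome 1, 465718 to 467844) it had 8 and 9 reads in controls, 5 and 60 after HS and 6 and 7 in recovery, and did not pass the filter. Fitted without a filter it was at 2.03 (SE 0.55, edgeR adjusted p = 0.0014), a value that rests on HS replicate 2 for most of its reads. The responses were called different by -4.78 (SE 0.64, edgeR adjusted p = 1.72e-05) in the joint fit of both species, where the *A. thaliana* side rests on these few reads.

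*COP1*, the ubiquitin ligase gene, moved little. In *A. thaliana* (AT2G32950, chromosome 2, 13977933 to 13983535) it was at 31.0 and 29.1 CPM in controls, 26.0 and 25.1 CPM after HS and 26.1 and 27.2 CPM in recovery. The controls were the highest, but the value of -0.23 (SE 0.11, 95% interval -0.49 to 0.02) was not called by edgeR (adjusted p = 0.0857). It was called without control replicate 2 (-0.24), with a minimum of 10 reads per library (-0.44) and with scaling by library totals (-0.98). In *A. lyrata* (AL4G27340) it was at 34.4 and 30.4 CPM in controls, 43.8 and 46.1 CPM after HS and 27.0 and 28.3 CPM in recovery. HS libraries were the highest, with an increase of 0.48 (SE 0.09, edgeR adjusted p = 0.000155) that was 0.25 with library totals. The responses differed by 0.74 (SE 0.14, edgeR adjusted p = 0.000433).

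*YUC8*, which encodes an enzyme of auxin synthesis and is a known PIF4 target in warm-grown seedlings, was almost silent in these leaves. It had 8 and 16 reads in *A. thaliana* controls (AT4G28720, chromosome 4, 14192583 to 14194256), 5 and 12 after HS and 3 and 3 in recovery, and in *A. lyrata* (AL7G23290) 2 and 2, 1 and 5, and 4 and 10 reads. It passed the filter in neither species. Fitted without a filter, the change after HS was -0.04 (SE 0.66, edgeR adjusted p = 0.971) in *A. thaliana* and 0.17 (SE 1.31, edgeR adjusted p = 0.926) in *A. lyrata*. In recovery it was -1.12 (SE 0.79, edgeR adjusted p = 0.504) and 1.29 (SE 1.15, edgeR adjusted p = 0.617). With errors of this size, a moderate change of *YUC8* was not detectable at this depth.

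**Figure D3:**
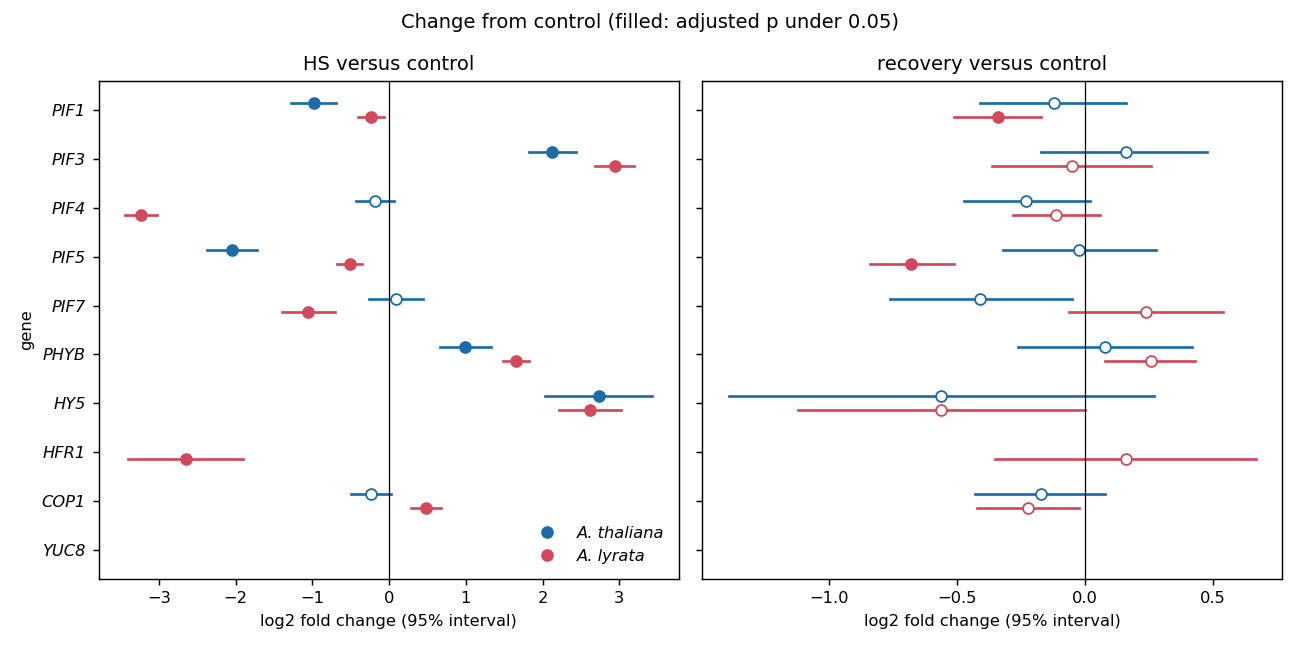
Log2 fold change from control after HS (left) and after recovery (right) for the genes on the y axis, with 95% intervals, in *A. thaliana* (blue) and *A. lyrata* (red). Filled points have an edgeR adjusted p under 0.05, genes that did not pass the filter have no point, and the x axes differ in range. HS values reach from -3.23 to 2.94, whereas recovery values lie between -0.68 and 0.26.

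Side by side, the HS responses of 8 of the 9 member pairs tested were called different between the species, 5 higher and 3 lower in *A. lyrata*, where 62.6% of all 17743 pairs were called (32.0% higher and 30.6% lower). The called differences ranged from -4.78 (*HFR1*) to 1.56 (*PIF5*), and each was called again when any single library was left out. Scaling by library totals moved the median difference of all pairs from 0.05 to 0.54. Under it *PIF1*, *PIF3*, *PHYB* and *COP1* differed by 1.20 to 1.33 and *PIF7* by -0.62, all called.

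After recovery, the members were back near control in *A. thaliana*. None of the 8 tested passed edgeR's test against control, 1 had an unadjusted p under 0.05 and DESeq2 called 0, where edgeR called 2.1% of all genes (1.34% higher and 0.766% lower). The values ran from -0.56 (*HY5*) to 0.16 (*PIF3*). The call count changed when a control library was left out. Without control replicate 1, *PIF4* (-0.30) and *PIF7* (-0.45) were called lower, 2 of 9 members tested where that fit called 30.3% of all genes. Without control replicate 2, *PIF7* (-0.36) and *HY5* (-1.02) were called lower and *PHYB* (0.30) higher, 3 of 9 where that fit called 35.1%, so that neither share exceeded its background. Against HS, 6 of 8 members were called, where 73.4% of all genes were (39.2% higher and 34.1% lower). *PIF1* (0.86) and *PIF5* (2.03) were higher in recovery than after HS, and *PIF3* (-1.97), *PHYB* (-0.91), *HY5* (-3.29) and *PIF7* (-0.50) were lower. The *PIF7* value was not called without HS replicate 2 (-0.27), recovery replicate 1 (-0.40) or recovery replicate 2 (-0.58) or with a minimum of 10 reads per library (-0.29), and it was 0.37 with library totals. With that scaling *PHYB* was at -0.05 and not called (edgeR adjusted p = 0.703).

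In *A. lyrata*, *PIF5* and *PIF1* stayed below control after 48 h. *PIF5* was lower by 0.68 on the log2 scale (log2 fold change -0.68, SE 0.08, edgeR adjusted p = 1.41e-05) and *PIF1* was at -0.34 (SE 0.08, edgeR adjusted p = 0.00867), and these 2 of 9 members stand beside 12.4% of all genes (7.65% higher and 4.73% lower). The *PIF5* call held in each alternative, whereas *PIF1* was not called by DESeq2 or without control replicate 1, control replicate 2, recovery replicate 1 or recovery replicate 2 (edgeR adjusted p from 0.0533 to 0.127 in these 4 fits). *PHYB*, at 0.26 (SE 0.08), missed the threshold (edgeR adjusted p = 0.0503), but was called at 0.25 or 0.26 in 6 alternatives, with median-of-ratios scaling, a minimum of 10 reads per library, the replicate block, only the 4 libraries compared, or without HS replicate 1 or HS replicate 2 (edgeR adjusted p from 0.0322 to 0.0437). Against HS, 7 of 9 members were called, where 77.3% of all genes were, 39.1% higher and 38.3% lower. *PIF4* (3.13), *PIF7* (1.30) and *HFR1* (2.81) were higher and *PIF3* (-2.99), *PHYB* (-1.40), *HY5* (-3.18) and *COP1* (-0.70) lower. Between the species, the recovery response was called different for *PIF5* alone among 9 pairs (-0.60, SE 0.16, edgeR adjusted p = 0.0341), where 9.40% of all pairs were called (5.99% higher and 3.41% lower). This call was lost in 8 of the 12 fits that left out 1 library.

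Per kb of exon, *PIF4* and *PIF5* were the most abundant members in controls of both species. In *A. thaliana*, *PIF4* (56.2 CPM per kb) and *PIF5* (47.2) were followed by *PIF7* (18.8), *COP1* (12.8), *PHYB* (12.4), *PIF1* (9.46), *PIF3* (3.74) and *HY5* (3.34), with *YUC8* and *HFR1* under 0.3. *PIF4* (SD 4.2) and *PIF5* (SD 7.31) were not separated beyond their spread, although *PIF4* was above *PIF5* within each control library. *COP1* and *PHYB*, and *PIF3* and *HY5*, were not separated either. In *A. lyrata*, *PIF5* (122 CPM per kb) and *PIF4* (84.2) were followed by *PIF1* (26.4), *COP1* (13.9), *PHYB* (11.6), *PIF7* (10.4), *PIF3* (4.15), *HY5* (2.98), *HFR1* (2.96) and *YUC8* (0.0997). *PHYB* and *PIF7*, and *HY5* and *HFR1*, were not separated beyond their spread.

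The other genes of the pathway were followed in 8 lists with 88 genes in all, which describe the surroundings of the members and were not tested as sets. After HS, 22 genes rose and 33 fell among 73 tested in *A. thaliana*, with a median of -0.44 against -0.12 over all genes, and 25 rose and 34 fell among 71 in *A. lyrata*, with a median of 0.03 against -0.01. Over all genes, 34.9% rose and 39.5% fell in *A. thaliana* and 37.9% rose and 38.7% fell in *A. lyrata*, and each count of called genes after HS given below stands against these shares.

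**Figure D4:**
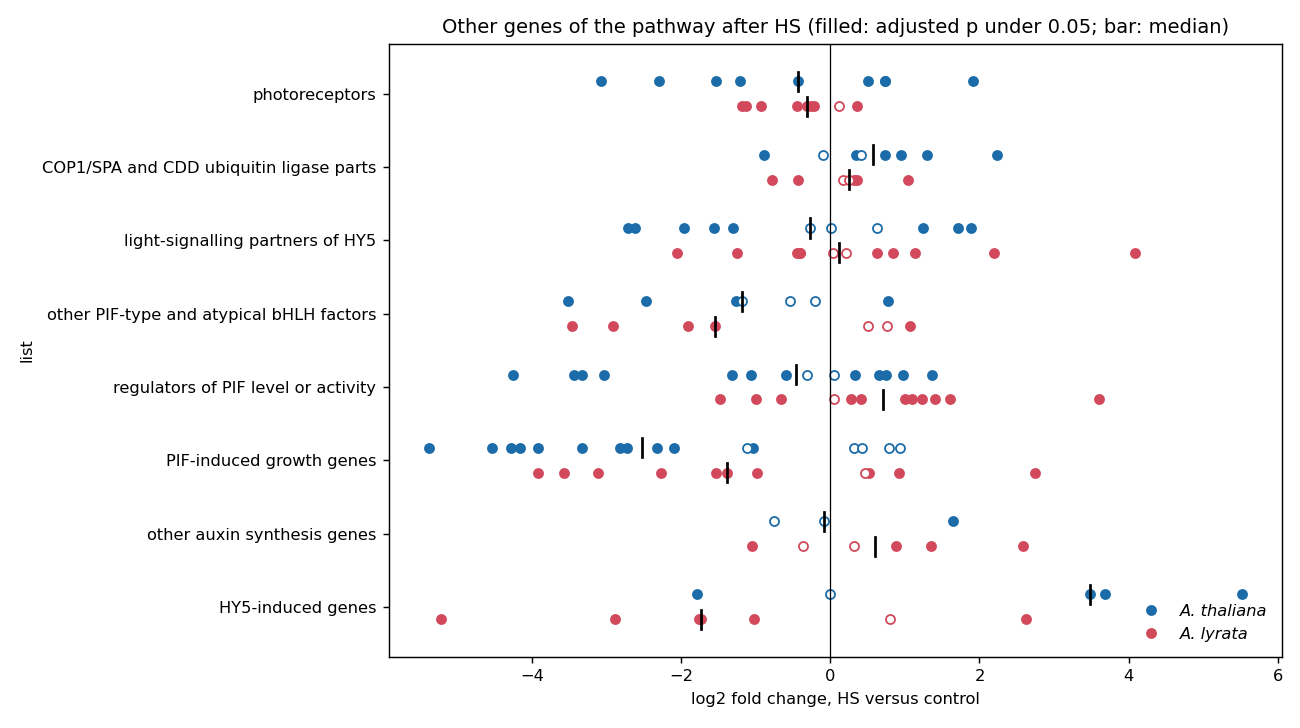
Log2 fold change after HS of the tested genes of 8 pathway lists (y axis) in *A. thaliana* (blue) and *A. lyrata* (red). Each point is a gene, filled where the edgeR adjusted p was under 0.05, and black bars are list medians. PIF-induced growth genes lie mostly below 0 in both species, with medians of -2.53 and -1.39, and HY5-induced genes have medians of 3.48 and -1.73. In both of these lists the genes tested differ between the species.

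Among growth genes induced by PIFs, 11 of 16 tested fell in *A. thaliana* after HS (median -2.53), and 7 fell and 3 rose of 11 in *A. lyrata* (median -1.39), where 39.5 and 38.7% of all genes fell. In *A. thaliana*, the homeodomain gene *HAT1* fell from 18.9 ± 0.524 CPM (SD, n = 2) to 3.66 ± 0.413 CPM (-2.33, SE 0.14, edgeR adjusted p = 4.77e-06). *SAUR21*, an auxin-induced growth gene, was at 5.89 and 0.139 CPM (-5.38, SE 0.33). However, *SAUR19* to *SAUR24* are near-identical copies whose reads could be split among them. Their single values are uncertain, and they do not count as independent genes in the count and median above. Only *SAUR22* and *SAUR24* of these had an *A. lyrata* orthologue, so the counts and medians of the species cover unlike sets of genes. In *A. lyrata*, the auxin response genes *IAA29* (-3.92, SE 0.26) and *IAA19* (-3.12, SE 0.22) fell, whereas the cytokinin oxidase gene *CKX5* (2.75, SE 0.13) and the shade avoidance gene *ATHB2* (0.92, SE 0.16, and 0.57 without HS replicate 2) rose. *ATHB2* fell in *A. thaliana* (-2.1, SE 0.22), and its responses differed by 3.0 (SE 0.29, edgeR adjusted p = 8.37e-07). After recovery, 5 of the 11 *A. lyrata* genes were above control by edgeR, where 7.65% of all genes were. DESeq2 called 2 of them, where it called 5.78% of all genes in either direction. *ATHB2* was at 28.8 ± 0.747 CPM against 7.97 ± 0.265 CPM in controls (1.84, SE 0.14, edgeR adjusted p = 1.39e-07). *IAA29* was at 18.9 ± 1.94 against 10.6 ± 1.9 CPM (0.86, SE 0.14, edgeR adjusted p = 0.000668).

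Genes known to be induced by HY5 had list medians of opposite sign in the species, with some members moving the same way. In *A. thaliana*, 3 of 5 rose and 1 fell (median 3.48), and in *A. lyrata*, 1 of 7 rose and 5 fell (median -1.73). Only 5 of the 7 genes passed the filter in *A. thaliana*, so these medians cover unlike sets. Over the 7 pairs of the joint fit, 5 responses were called lower in *A. lyrata* and 0 higher (median difference -2.07). Of all pairs, 30.6% were called lower and 32.0% higher. *CHS*, which encodes the first enzyme of flavonoid synthesis, rose from 30.9 ± 5.86 to 396 ± 40.3 CPM (SD, n = 2) in *A. thaliana* (3.69, SE 0.17, edgeR adjusted p = 1.33e-06) and fell from 225 ± 4.84 to 29.5 ± 5.63 CPM in *A. lyrata* (-2.89, SE 0.11, edgeR adjusted p = 1.36e-13). The responses of *CHS* differed by -6.56 (SE 0.22, edgeR adjusted p = 5.5e-11). *ELIP1*, an early light-induced protein gene, rose in both (5.52 and 2.63), *CHI* of the same flavonoid pathway fell in both (-1.79 and -1.73), and the carotenoid synthesis gene *PSY* fell in *A. lyrata* (-1.76, SE 0.09) and was at -0.01 in *A. thaliana*.

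Of 9 other photoreceptor genes, 4 rose and 5 fell in *A. thaliana* (median -0.44), and 1 rose and 7 fell in *A. lyrata* (median -0.32), where 74.4 and 76.5% of all genes were called in either direction. In *A. thaliana*, the far-red receptor gene *PHYA* rose from 58.1 ± 7.81 to 218 ± 4.24 CPM (SD, n = 2; 1.91, SE 0.12, edgeR adjusted p = 6.26e-06) and the UV-B receptor gene *UVR8* was at 0.73 (SE 0.11). The blue-light receptor gene *PHOT1* (-2.3, SE 0.14) and *PHYD* (-3.08, SE 0.20), the closest relative of *PHYB*, fell. How reads that could come from either *PHYB* or *PHYD* were counted is not given in the sources used here, so both values may hold reads of the other gene. *UVR8* was at -0.01 with library totals. In *A. lyrata*, *CRY1* (-1.18, SE 0.08) and *PHOT1* (-1.13, SE 0.09) fell, *CRY2* (0.36, SE 0.09) rose, and *PHYD* was at 0.12 (SE 0.10). The *CRY2* call was lost with library totals. The responses of *PHYD* differed by 3.23 (SE 0.22, edgeR adjusted p = 3.26e-08) and those of *PHYA* by -2.19 (SE 0.15, edgeR adjusted p = 2.96e-08).

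Of 8 genes for partners of COP1 in ubiquitin ligase complexes, 5 rose and 1 fell in *A. thaliana* (median 0.57), and 3 rose and 2 fell of 7 in *A. lyrata* (median 0.25). The adaptor gene *DDB1A* rose from 43.6 ± 2.97 to 207 ± 2.12 CPM (SD, n = 2) in *A. thaliana* (2.24, SE 0.11) and fell in *A. lyrata* (-0.78, SE 0.09), a difference of -3.0 (SE 0.14, edgeR adjusted p = 1.06e-09). *DDB1B* rose (1.3, SE 0.13) and *COP10* fell (-0.89, SE 0.29) in *A. thaliana*, the latter at -0.37 without control replicate 1 and not called without HS replicate 1 or HS replicate 2. In *A. lyrata*, *SPA2* (1.04, SE 0.09) and *SPA1* (0.36, SE 0.07) rose and *SPA3* (-0.44, SE 0.08) fell, and *SPA1* was not called with library totals.

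Of light-signalling partners of HY5, 3 rose and 5 fell of 11 in *A. thaliana* (median -0.28), and 5 rose and 5 fell of 12 in *A. lyrata* (median 0.12). The B-box gene *BBX22*, whose product acts with HY5, rose in both species (1.89, SE 0.11, and 0.84, SE 0.09), as did *FHY3*, a transposase-derived factor of phytochrome A signalling (1.71, SE 0.13, and 1.14, SE 0.08). *BBX28* (-2.71, SE 0.20) and *BBX25* (-1.3, SE 0.14) fell in *A. thaliana*. In *A. lyrata*, *HYH*, the close relative of *HY5*, fell from 11.4 ± 0.782 to 2.7 ± 0.107 CPM (SD, n = 2; -2.06, SE 0.19, edgeR adjusted p = 2.1e-08) and *BBX20* fell (-1.25, SE 0.22, and -1.91 without HS replicate 2).

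Of regulators of PIF level or activity, 5 rose and 7 fell of 14 in *A. thaliana* (median -0.46), and 8 rose and 3 fell of 12 in *A. lyrata* (median 0.71). *GAI* (-3.44, SE 0.15) and *RGL1* (-3.33, SE 0.23), which encode DELLA proteins that bind PIFs, fell in *A. thaliana*, and *TZP* (0.98, SE 0.14) and the evening complex gene *ELF3* (0.74, SE 0.14) rose, of which *TZP* was not called and *ELF3* was at 0 with library totals. In *A. lyrata*, *LUX*, an evening complex gene whose product represses *PIF4* and *PIF5* in *A. thaliana*, rose from 1.13 ± 0.433 to 14.4 ± 0.0361 CPM (SD, n = 2; 3.61, SE 0.22, edgeR adjusted p = 1.02e-10). *LUX* was at 0.05 (SE 0.11) in *A. thaliana*, and the responses differed by 3.6 (SE 0.23, edgeR adjusted p = 1.73e-08). *ARF6* rose (1.41, SE 0.09) and *HMR* (-1.48, SE 0.09) and *PCH1* (-1.0, SE 0.10) fell in *A. lyrata*. *RGL1* rose there (1.09, SE 0.11), a difference of 4.4 from *A. thaliana* (SE 0.24, edgeR adjusted p = 3.45e-09).

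Of other PIF-type and atypical bHLH genes, 1 rose and 3 fell of 7 in *A. thaliana* (median -1.19), and 1 rose and 4 fell of 7 in *A. lyrata* (median -1.55). *PAR2*, whose product binds PIFs like HFR1, fell in both (-2.47, SE 0.32, and -2.92, SE 0.18). *KDR* fell (-1.26, SE 0.19) and *SPT* rose (0.77, SE 0.24) in *A. thaliana*, the latter not called with library totals, by DESeq2 or without HS replicate 2 (0.64). *PIL1*, a PIF-like gene, rose in *A. lyrata* on at most 27 reads (1.07, SE 0.43, edgeR adjusted p = 0.0316), a call lost in 8 alternatives. *PIF8* fell in *A. lyrata* from 7.98 ± 0.562 to 0.696 ± 0.0573 CPM (SD, n = 2; -3.47, SE 0.25, edgeR adjusted p = 7.4e-10) and was at -0.54 in *A. thaliana*, a difference of -2.91 (SE 0.36, edgeR adjusted p = 8.1e-06). Of auxin synthesis genes beside *YUC8*, most had too few reads, with 3 of 11 tested in *A. thaliana* and 6 of 11 in *A. lyrata*. *YUC2* rose in both (1.65, SE 0.37, and 1.35, SE 0.26), in *A. thaliana* not with library totals, *YUC5* fell in *A. lyrata* on few reads (-1.05, SE 0.39, not called by DESeq2 or without control replicate 2 or HS replicate 1), and *YUC11* rose there from 3.42 ± 0.633 to 20.6 ± 2.06 CPM (SD, n = 2; 2.58, SE 0.19, edgeR adjusted p = 8.96e-10).

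After recovery, no gene of the 8 lists was called by edgeR among 73 in *A. thaliana*, while 12 had an unadjusted p under 0.05 and DESeq2 called 1. Without control replicate 1, 20 of 72 were called, where that fit called 30.3% of all genes, and without control replicate 2, 20 of 73, where 35.1% were. In *A. lyrata*, 11 of 71 were above and 7 below control, where 7.65% of all genes were above and 4.73% below. DESeq2 called 9 in either direction, where it called 5.78% of all genes. Beside the growth genes, *HMR* (0.38, SE 0.08) and *RGL1* (0.49, SE 0.11) were higher, and *ELF3* (-0.46, SE 0.08), *SPA3* (-0.46, SE 0.08), *SPA1* (-0.28, SE 0.08), *BBX24* (-0.35, SE 0.08), *CRY1* (-0.30, SE 0.08), *PHOT1* (-0.29, SE 0.08) and *PSY* (-0.37, SE 0.08) were lower. The auxin synthesis genes *YUC7* (1.27, SE 0.31) and *YUC5* (0.98, SE 0.29) and the bHLH gene *PAR1* (2.27, SE 0.49) were higher on few reads, at most 89 in a library. The calls of *ELF3*, *SPA3*, *ATHB2* and *IAA29* held when any single library was left out, and those of the other genes named here were lost in at least 1 such fit.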

How the data were processed

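Transcripts of rosette leaves were measured in 12 libraries. Strand non-specific libraries were read as 100 bp single ends, and the authors trimmed the reads, mapped them with tophat2 (TAIR10 for *A. thaliana*, v1.0 for *A. lyrata*) and summarised each gene with Qualimap, so the deposited values used are raw read counts. How reads that map to several places were counted is not given in the sources used here. The RPKM columns were not used. Weakly covered genes were dropped with filterByExpr (at a minimum count of 10 and total of 15) and the rest scaled by TMM and tested per species in edgeR 4.0.16 (R 4.3.3), with 6 libraries in a fit and 3 residual degrees of freedom. Species differences were tested on one-to-one orthologue pairs in a joint fit. CPM per kb used the exon length of each gene. DESeq2 1.42.0, other scalings, other filters, a replicate block and fits without single libraries were run as alternatives. The fit was run on simulated counts with known changes in a small share of genes. That run does not show how scaling behaves where most genes change, as after HS. Replicate numbers were not used to pair the libraries in the reported fits. The members and lists were chosen with earlier results of these data known. From each list, up to 2 increases and 2 decreases with the smallest p and no overlap between libraries are named.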

Additional observations from a re-analysis of the deposited data

Results flagged for a closer look

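The responses of 8 members to HS differed between the species by a test of the difference itself (edgeR, *A. lyrata* minus *A. thaliana*, log2 scale). The differences were 0.77 for *PIF1*, 0.84 for *PIF3*, -3.03 for *PIF4*, 1.56 for *PIF5*, -1.13 for *PIF7*, 0.71 for *PHYB*, -4.78 for *HFR1* and 0.74 for *COP1*. Such a difference was called for 62.6% of all pairs. After recovery, *PIF5* differed by -0.60, where 9.40% of all pairs were called. The *HFR1* value includes *A. thaliana* libraries with 5 to 60 reads, of which 60 were in HS replicate 2. With 2 libraries in each group, single libraries were not tested for standing apart from their group.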

How the results depend on the processing

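Of 1000 alternative values of members, 918 kept their direction and their side of the threshold. With library totals, reversed values were 0.10 for *PIF1* (*A. lyrata*, recovery against HS), 0.81 for *PIF4* (*A. thaliana*, recovery against HS), 0.10 for *PIF5* (*A. thaliana*, recovery against control), 0.03 for *PIF5* (*A. lyrata*, recovery against HS), -0.66 and 0.37 for *PIF7* (*A. thaliana*, HS against control and recovery against HS), -0.01 for *UVR8* and -0.0 for *ELF3* (*A. thaliana*, HS against control), and, for the species difference, 0.44 for *HY5* in HS, -0.10 for *HY5* in recovery and -0.15 for *COP1* in recovery. The same scaling moved called *A. thaliana* values after HS to -1.73 for *PIF1*, 1.38 for *PIF3*, 1.17 for *PHYA*, 0.55 for *DDB1B*, 1.15 for *BBX22*, 0.97 for *FHY3*, -1.66 for *COP10*, -2.06 for *BBX25* and -2.01 for *KDR*, and *A. lyrata* values to -0.47 for *PIF1* and -0.67 for *SPA3*. In *A. thaliana* recovery against HS it gave 1.72 for *PIF1*, -1.11 for *PIF3* and a called 0.92 for *COP1*. With a minimum of 10 reads per library they were 0.15 for *PIF4* (*A. thaliana*, recovery against HS), -0.11 for *PIF7* (*A. thaliana*, HS against control) and 0.06 for *HY5* (species difference in HS). Median-of-ratios scaling and DESeq2 each gave -0.03 for *COP1* (*A. thaliana*, recovery against HS) and -0.03 for its species difference in recovery, and scaling from the full tables gave -0.05 for the latter and -0.0 for that of *HY5*. Without single libraries, values that changed sign ranged from -0.17 to 0.14 for *PIF5* and -0.11 to 0.30 for *PHYB* (*A. thaliana*, recovery against control), and from -0.13 to 0.26 for *PIF7* (*A. thaliana*, HS against control). For the species difference they ranged from -0.53 to 0.34 for *HY5* in HS, and in recovery from -0.40 to 0.47 for *HY5*, -0.01 to 0.46 for *PHYB*, -0.51 to 0.16 for *HFR1* and -0.07 to 0.09 for *COP1*. The cause of these changes was not tested.

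Counts of called members after recovery were 0 to 3 in *A. thaliana* (0 in the reported fit), 1 to 3 in *A. lyrata* (2) and 0 to 3 for the species difference (1) without single libraries. DESeq2 called 1 in *A. lyrata*, and no filter on low counts gave 2 for the species difference. Over the pathway lists, leaving out single libraries gave 0 to 20 genes after recovery in *A. thaliana* (0), 4 to 18 in *A. lyrata* (18) and 1 to 24 for the species difference (2). Other settings gave 3 in *A. thaliana* recovery with library totals, 1 by DESeq2 and 3 with no filter, 9 in *A. lyrata* recovery by DESeq2, and 10 with library totals, 5 with no filter and 1 with a minimum of 10 reads for the species difference in recovery. With that minimum, 35 genes (57) were called for *A. thaliana* recovery against HS and 30 (50) for the species difference in HS, on fewer genes tested. For a lone library left in a group, the fit assumes that it varies like the other groups. The share of all genes called also changed between fits, including those without single libraries. For *A. lyrata* recovery it was 12.4% in the reported fit and 5.78% by DESeq2. For the species difference in recovery it was 9.40% in the reported fit. It was 12.7% with library totals, 11.1% with no filter and 12.8% with a minimum of 10 reads. The counts alone therefore do not show that these genes varied more between fits than others.

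Replicate differences of separate conditions correlated at -0.084 to 0.121 in *A. thaliana* and -0.033 to 0.266 in *A. lyrata*. The highest value in each species was between HS and recovery. The labels do not say whether libraries with the same replicate number belong together, and the reported fits did not pair them. With the replicate block, 2 member pairs in place of 1 were called for the species difference in recovery, with *PIF7* added (0.71, edgeR adjusted p = 0.0328). That fit called 8.83% of all pairs, against 9.40% in the reported fit. For *A. lyrata* recovery 3 members in place of 2 were called with the block, with *PHYB* added (edgeR adjusted p = 0.0345). There 14.1% of all genes were called, against 12.4%. The other counts of members called were those of the fit without it. At this depth *YUC8* in both species and *HFR1* in *A. thaliana* did not pass the filter on low counts.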

Other observations

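Clock genes gate the expression of PIF genes through the day, and 7 of them were followed. These genes also changed after HS, and a summed level does not show their timing. The values therefore cannot show whether the groups were harvested at the same hour. After HS, 3 rose and 3 fell in *A. thaliana*, where 74.4% of all genes were called, and 5 rose and 1 fell in *A. lyrata*, where 76.5% were. The responses of all 7 were called different between the species by edgeR, 5 higher and 2 lower in *A. lyrata*, where 62.6% of all pairs were called (32.0% higher and 30.6% lower). Their summed level was 458 to 560 CPM in *A. thaliana* controls and 538 to 545 CPM after HS, and 300 to 301 and 513 to 521 CPM in *A. lyrata*. After recovery, it was 486 to 488 CPM in *A. thaliana* and 287 to 289 CPM in *A. lyrata*. In *A. lyrata* recovery, 1 gene was above and 1 below control, where 7.65% of all genes were above and 4.73% below. In *A. thaliana* recovery, 0 of the 7 were called, where 1.34% of all genes were above and 0.766% below. Between the species, 1 of the 7 recovery responses was called higher in *A. lyrata* and 0 lower. Of all pairs, 5.99% were called higher and 3.41% lower. The part of the clock genes in the values of the PIF genes was not tested.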
